A study of Macaca mulatta with 9 samples.

Results

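The genes described are the proteins of the ribosome, the particle that reads messenger RNA and builds protein. They were taken from the array annotation by symbol, as RPL, RPS, MRPL or MRPS followed by a digit, plus RPSA, leaving out RPS4X, the RPS4Y genes and the RPS6K kinases. This gave 101 of the 14132 genes that the annotation names. Of these, 39 belong to the cytosolic set (25 named RPL for the large subunit and 14 named RPS for the small subunit) and 62 to the mitochondrial set (40 MRPL and 22 MRPS). Each gene is represented by its brightest probe set, a group of short probes on the array that read the same transcript.

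Cells hold separate ribosomes in the cytosol and in the mitochondria. Cytosolic ribosomes translate messages of the nuclear genome, and their proteins are made in near equal amounts from some of the most abundant messages of the cell. Mitochondrial ribosomes translate the few messages of the mitochondrial genome, all for subunits of the respiratory chain and ATP synthase, although every protein of the mitochondrial ribosome is itself encoded in the nucleus. In the ovary, growing oocytes accumulate ribosomes for the embryo, and inherited defects of several mitochondrial translation genes are known causes of early ovarian failure.

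Ovarian RNA of 9 female rhesus monkeys (*Macaca mulatta*) was hybridized to 9 one-colour arrays, 1 monkey per array and 3 per age group. The young monkeys (3 to 4 years) cycled normally but had not bred, the middle-aged monkeys (7 to 8 years) reproduced well, and the old monkeys (18 to 19 years) no longer reproduced. Ovaries of the young and middle-aged monkeys were taken at about proestrus, each array read part of a single ovary, and all animals were perfused with buffer before collection. A lower value in such bulk tissue cannot tell fewer cells of a type from less RNA per cell. Arrays are called by group and replicate number, as in old 1, and values are intensities on a linear scale or differences on the log2 scale.

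Array old 1 stood apart before any ribosomal gene was considered. Its median correlation with the other arrays over all probe sets was 0.957, the lowest of the 9, against 0.965 for old 3 and 0.975 to 0.983 for the other 7. The ratio of 3′ to 5′ signal of the control transcript EF1A was 3.11, 2.80 and 2.60 on the old arrays and 1.59 to 1.99 on the others. For GAPDH the same ratio was lowest on old 1 (3.13) and highest on old 3 (5.15). For actin it was high throughout, at 13.35 to 20.79, with 14.84, 16.96 and 20.79 on the old arrays. The oocyte markers, of which 20 of 28 were measured, summed to 905 to 6069 in old, 2523 to 8209 in middle-aged and 3832 to 10540 in young ovaries. In the limma test below, 9 of the 20 were called lower in old than in young ovaries, against 0.155% of all probe sets called either way. The list holds genes that the study itself found lower in old ovaries, such as ZP3, FIGLA and BCL2L10. That count is therefore no independent result. Granulosa cell markers (10 of 14 measured) had sums of 9115 to 20140 in old and 14020 to 32350 in young ovaries. Such sums are set by the brightest markers and hide single genes. Of these markers 7 were lower and 3 higher in old than in young ovaries, at log2 fold changes from -3.88 to 2.67 (median -0.80).

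The first comparison asked whether ribosomal protein transcripts differed between old and young ovaries. No ribosomal protein gene passed the test in either set, which required a limma adjusted p under 0.05 over all probe sets and a fold of at least 1.5. The same test called 0.155% of all 52766 probe sets. The smallest adjusted p among the 101 genes was 0.226, and SAM, an analysis by permutation of the array labels, also called none of them. The study lists RPL39L, which is not among the 101 genes, as lower in old ovaries. The sets nevertheless lay differently. The median log2 fold change of the cytosolic set was -0.22 (quartiles -0.32 and -0.10), with 32 genes lower and 7 higher in old ovaries. The median of the mitochondrial set was -0.02 (quartiles -0.18 and 0.15), with 32 genes lower and 30 higher. Over all 14132 named genes the median was -0.00, and over all probe sets it was 0.01.

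**Figure D1:**
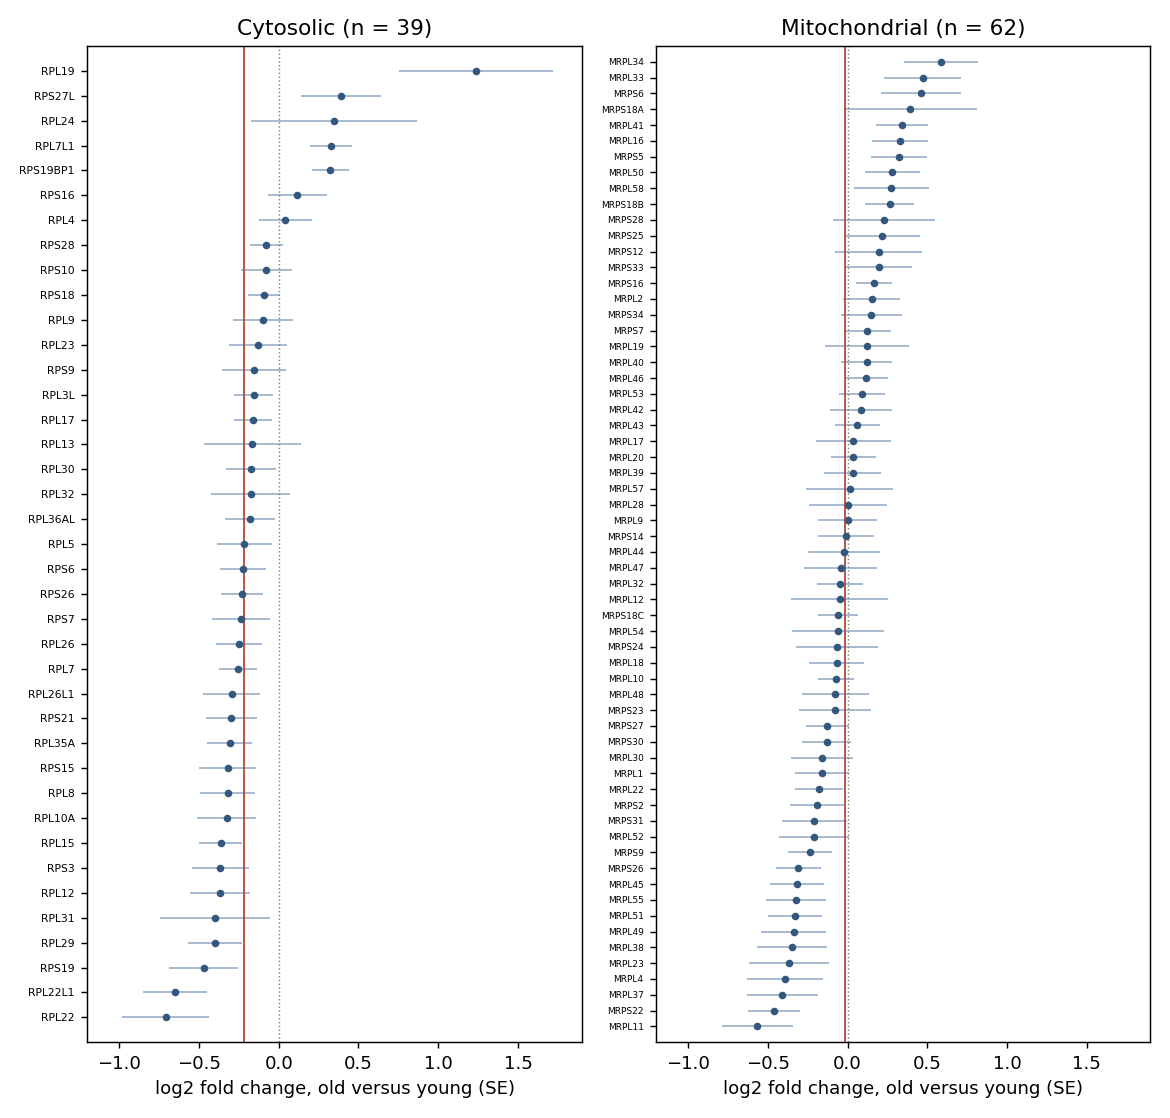
Log2 fold change between old and young ovaries of each cytosolic (left) and mitochondrial (right) ribosomal protein gene, with bars of 1 standard error from the limma fit over 9 arrays. The red line marks the median of each set, -0.22 and -0.02, and the dotted line marks 0; RPL22 and RPL22L1 lie lowest and RPL19 highest among the cytosolic genes.

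With all 9 arrays, counts of single genes by unadjusted p were near or under the share of all named genes. At an unadjusted p under 0.05, 4 cytosolic genes (10.3%) were lower, against 12% of all named genes, and 3 (7.69%) were higher, against 6.81%. In the mitochondrial set 2 genes (3.23%) were lower and 1 (1.61%) was higher, both under the background shares. These counts hung on single old arrays. The 4 lower cytosolic genes became 1 without old 1 (2.56%, against 10.8% of named genes), 6 without old 2 (15.4%, against 12.4%) and 10 without old 3 (25.6%, against 10.4%). Without old 3 the cytosolic share was thus above that of named genes. In the mitochondrial set the 1 higher gene became 6 without old 3 (9.68%, against 8.36%) and the 2 lower ones became 7 without old 2 (11.3%, against 12.4%). All 3 old arrays lay below all 3 young arrays for 10 cytosolic genes (25.6%, against 13.8% of named genes) and above them for 2 (5.13%, against 7.78%). Those 10 were all of the large subunit, namely RPL7, RPL10A, RPL12, RPL15, RPL17, RPL22, RPL22L1, RPL26, RPL29 and RPL35A. For mitochondrial genes such separation was seen for 2 lower and 2 higher genes (3.23% each way).

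The cytosolic set was carried mostly by a single old ovary. Each gene's log2 intensity was taken relative to its own mean over the 9 arrays, and the median over the 39 cytosolic genes was then 0.10, 0.05 and 0.05 on the young arrays, 0.08, 0.05 and 0.05 on the middle-aged arrays and -0.48, -0.01 and 0.01 on the old arrays. The 3 old arrays were thus the 3 lowest, but old 2 and old 3 lay just under the younger arrays while old 1 lay far below every other array. Without old 1 the median fold change between old and young ovaries was -0.08, with 26 genes lower and 13 higher. Without old 2 it was -0.25, and without old 3 it was -0.30.

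**Figure D2:**
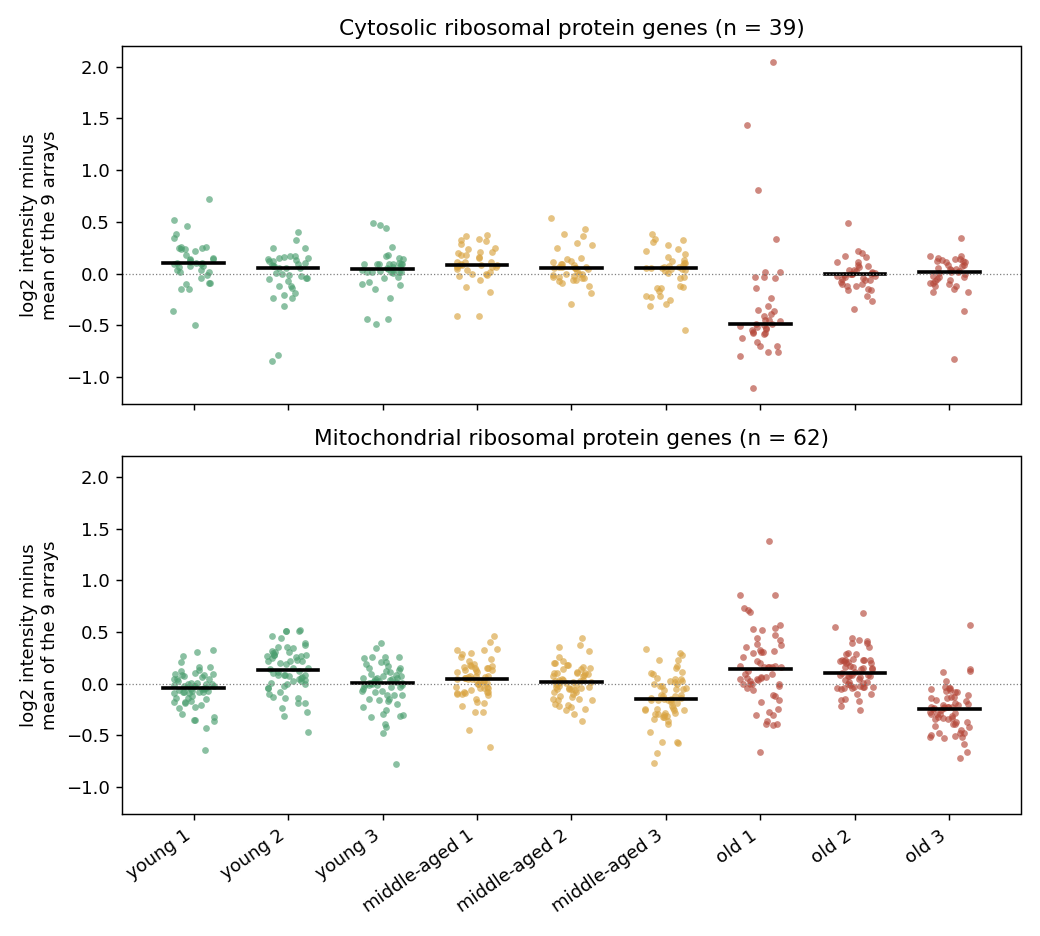
Deviation of each ribosomal protein gene from its own mean over the 9 arrays, in log2 units, by array, for the 39 cytosolic genes (top) and the 62 mitochondrial genes (bottom). Each point is 1 gene and the black bar is the median; the cytosolic bar lies at -0.48 on old 1 and between -0.01 and 0.10 elsewhere, and the mitochondrial bar is lowest on old 3 at -0.24.

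Old 1 was the lowest of the 9 arrays for 29 of the 39 cytosolic genes (74.4%), against 21.2% of all named genes. Among the 30 cytosolic genes with a mean intensity of at least 1000 it was the lowest for 28 (93.3%), against 34.7% of the 1155 named genes that bright. On old 1 those 30 genes stood at a median of 67.0% of their mean on the other 8 arrays. The 9 dimmer cytosolic genes had a median deviation of -0.04 on old 1. Several of these read faint signals, such as RPL5 (14.1 to 22.4), RPS16 (33.5 to 57.4), RPS19 (25.7 to 58.0) and RPS27L (5.70 to 13.5), near or under the median probe set of 25.5. Both subunits took part, with deviations on old 1 of -0.51 for the large and -0.40 for the small subunit. The probe sets annotated with several symbols, which were kept out of the 39 genes, had a median of -0.49 on old 1 (n = 29) and of -0.03 to 0.12 on the other arrays.

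Among the proteins of the large subunit, RPL22 and its paralog RPL22L1 had the largest negative fold changes. RPL22 binds RNA at the surface of the large subunit, and RPL22L1 is a near relative that can take its place there. The intensity of RPL22 was 2785, 2451 and 3307 in young, 3029, 2261 and 2866 in middle-aged and 1099.8, 2036 and 2303 in old ovaries. All old values lay under all young values, whereas old 3 overlapped the middle-aged group. The log2 fold change was -0.71 (SE 0.27, limma adjusted p = 0.318) against young and -0.64 (SE 0.27, adjusted p = 0.624) against middle-aged ovaries. Without old 1 these were -0.38 and -0.32. A second probe set of RPL22, of mean intensity 901, gave -0.49 (SE 0.21) against young ovaries. RPL22 had 3 probe sets, whose log2 fold changes against young ovaries spanned 0.87, so that the third departed from the 2 given here.

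RPL22L1 stood at 6016, 5161 and 4402 in young, 5030.4, 5870.0 and 3995 in middle-aged and 2676, 3907 and 3382 in old ovaries. The old group did not overlap either younger group. The log2 fold change was -0.65 (SE 0.20, limma adjusted p = 0.226) against young and -0.58 (SE 0.20, adjusted p = 0.553) against middle-aged ovaries. Without old 1 it was -0.50 and -0.43.

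The other large subunit genes at an unadjusted p under 0.05 were RPL15 and RPL29. RPL15, a core protein of the large subunit, measured 15083, 14131 and 13188 in young, 13838, 13312 and 13188 in middle-aged and 9048, 12285 and 11902 in old ovaries (log2 fold change against young -0.36, SE 0.13, limma adjusted p = 0.302). RPL29 measured 13240.4, 12474 and 11192 in young, 13059, 11505 and 11086 in middle-aged and 7172, 10568 and 10604 in old ovaries (-0.40, SE 0.17, adjusted p = 0.356). In both genes old 1 was far below and old 2 and old 3 just below the other 6 arrays, and without old 1 the fold changes were -0.22 for RPL15 and -0.21 for RPL29. The 2 dimmer probe sets of RPL29 went the other way, at 0.66 (SE 0.30) and 0.65 (SE 0.34), with old 1 the highest of the 9 arrays on each.

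In the small subunit no gene was lower at an unadjusted p under 0.05 against young ovaries, and the median log2 fold change was -0.19. RPS3, which sits where the message enters the small subunit, had 13861, 13683 and 12364 in young, 14126, 13268 and 12817 in middle-aged and 7749, 12817 and 11042 in old ovaries. Old 2 overlapped the younger groups (-0.37 against young, SE 0.18, limma adjusted p = 0.416), and without old 1 the fold change was -0.16. RPS6, the small subunit protein phosphorylated by S6 kinases in response to growth signals, had 12942, 13959 and 14204 in young, 14428, 14729 and 14846 in middle-aged and 9476, 12249.9 and 13959 in old ovaries. Its log2 fold change was -0.22 (SE 0.14) against young and -0.32 (SE 0.14) against middle-aged ovaries, and -0.07 and -0.17 without old 1. Among the bright small subunit genes, RPS28 and RPS18 departed least on old 1, at 89.6% and 82.8% of their mean on the other 8 arrays.

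Of the 30 bright cytosolic genes, 28 were lower and 2, RPL19 and RPL24, were higher in old than in young ovaries. Both proteins reach from the large to the small subunit as bridges. RPL19 read 928, 483 and 617 in young, 649, 707 and 595 in middle-aged and 3566, 1210.0 and 835 in old ovaries, and its old 1 value was 474% of the mean of the other 8 arrays. Its log2 fold change against young ovaries was 1.24 (SE 0.48, limma adjusted p = 0.324), and 0.63 without old 1. RPL24 read 1034, 1342 and 1555 in young, 1098, 2116 and 1324 in middle-aged and 3948, 1362 and 824 in old ovaries, 296% of the other 8 on old 1. Its log2 fold change of 0.35 (SE 0.52, adjusted p = 0.817) became -0.29 without old 1 and 0.84 without old 3. On the array where 28 of the 30 bright cytosolic genes were at their lowest, these 2 were at their highest. The other 5 of the 7 cytosolic genes with a positive fold change were dimmer, namely RPS27L (0.39), RPL7L1 (0.33), RPS19BP1 (0.32), RPS16 (0.12) and RPL4 (0.04). On old 1 RPS27L stood at 186% and RPS19BP1 at 130% of the other 8 arrays, and without old 1 the fold change of RPS27L was 0.11.

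**Figure D3:**
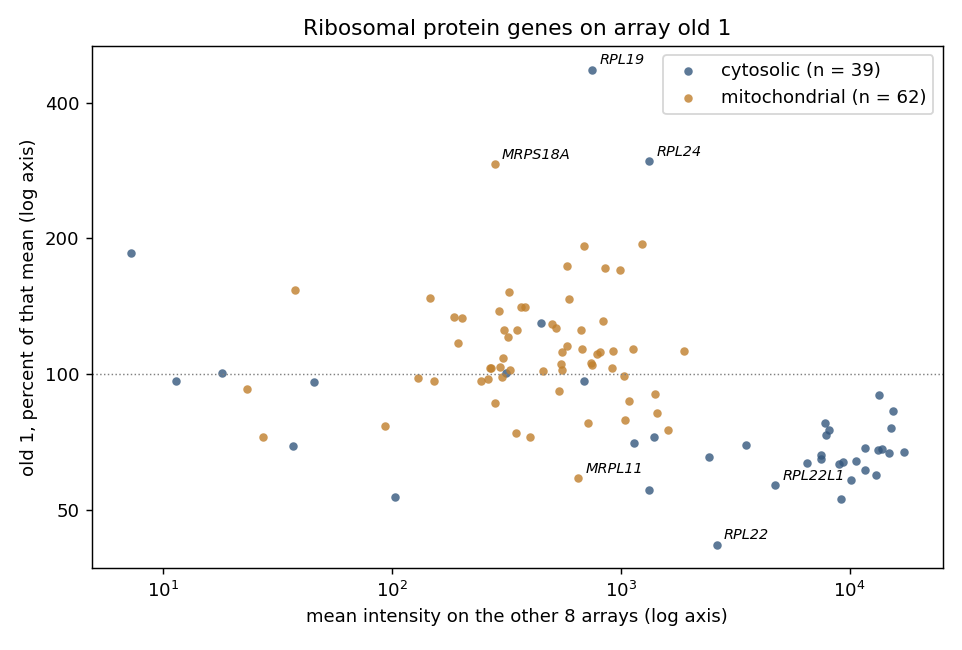
Intensity of each ribosomal protein gene on array old 1, as a percent of its mean on the other 8 arrays, against that mean (both axes logarithmic; blue cytosolic, orange mitochondrial). Of the 30 cytosolic genes with a mean of at least 1000 over all arrays, 28 lie under 100%, from 41.8% for RPL22 upward, and RPL19 and RPL24 lie at 474% and 296%.

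The rule also took in 6 paralogs of cytosolic proteins and 1 gene, RPS19BP1, whose product is a nucleolar protein that binds RPS19 and is no subunit. RPS19BP1 measured 472, 392 and 392 in young, 458, 439 and 451 in middle-aged and 582, 489 and 499.6 in old ovaries, with all old arrays above all others (0.32 against young, SE 0.12, limma adjusted p = 0.294). RPL7L1, which takes part in assembly of the large subunit in the nucleolus, measured 637, 547 and 614 in young, 673, 674 and 774 in middle-aged and 664, 737 and 864 in old ovaries (0.33 against young, SE 0.13, adjusted p = 0.332). Both were higher in old ovaries while the 32 cytosolic subunits proper had a median of -0.22, 28 of them lower and 4 higher. The remaining paralogs, beside RPL22L1, overlapped between old and young ovaries. RPL36AL had a log2 fold change of -0.18 (SE 0.16) and RPL26L1 of -0.30 (SE 0.18), and without old 1 these were -0.04 and -0.15. RPL3L, the striated muscle form of RPL3, read only 9.12 to 13.4 on any array, and RPS27L read 5.70 to 13.5.

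RPL13 showed how much a value could depend on the probe set. Its brightest probe set had a log2 fold change of -0.16 (SE 0.31, and 0.16 without old 1) against young ovaries, the second brightest -0.38 (SE 0.25) and the next -1.83 (SE 0.56, limma adjusted p = 0.228). The last of these read 7587, 2487 and 6159 in young, 3096, 5357 and 1729 in middle-aged and 783, 2152 and 1535 in old ovaries. All old values were under all young values there, but the young values themselves spread more than 3-fold. Of the 41 ribosomal protein genes with several probe sets, 14 had probe sets of both signs.

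The mitochondrial set had no common direction with age. Its median deviations were -0.04, 0.14 and 0.00 on the young, 0.04, 0.02 and -0.15 on the middle-aged and 0.14, 0.10 and -0.24 on the old arrays. The old ovaries split, since old 1 and old 2 were among the 3 highest arrays and old 3 was the lowest. Old 3 was below the own mean of 57 of the 62 genes and was the lowest array for 25 of them (40.3%, against 17.1% of named genes). Old 1 was the highest array for 19 (30.6%, against 20% of named genes). Leaving out old 3 gave a median log2 fold change against young ovaries of 0.14, with 21 genes lower and 41 higher, and leaving out old 1 gave -0.08, with 43 lower and 19 higher.

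MRPS22, a protein of the small mitochondrial subunit in which inherited mutations cause ovarian insufficiency in women, was the mitochondrial gene with the smallest p against young ovaries. It read 679.6, 951 and 691 in young, 766, 880.2 and 680.4 in middle-aged and 560.3, 595 and 515 in old ovaries. All 3 old values lay below all 6 younger ones. The log2 fold change was -0.46 (SE 0.16, limma adjusted p = 0.279) against young and -0.47 (SE 0.16, adjusted p = 0.551) against middle-aged ovaries, and it stayed between -0.51 and -0.41 against young ovaries when any single old array was left out. A second, dim probe set of MRPS22 with a mean of 34.5 gave 0.12 (SE 0.19), and the mean of both probe sets gave -0.17 against young ovaries.

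MRPL11, part of the base of the stalk that recruits elongation factors to the large mitochondrial subunit, read 730.0, 822 and 662 in young, 741, 641 and 471 in middle-aged and 382, 631 and 507 in old ovaries. Old lay under young (-0.57, SE 0.22, limma adjusted p = 0.325) but overlapped middle-aged ovaries, and the fold change was -0.38 without old 1. MRPL34 ran the other way, at 581, 670.5 and 595 in young, 778, 749.6 and 626 in middle-aged and 1336, 868 and 676 in old ovaries (0.59 against young, SE 0.23, adjusted p = 0.325, and 0.32 without old 1). MRPL41, also known for binding BCL2, read 659, 718 and 592 in young, 630.3, 656 and 454 in middle-aged and 841, 909 and 745 in old ovaries. Its old values were above all younger ones, with a log2 fold change of 0.34 (SE 0.16, adjusted p = 0.415) against young and 0.53 (SE 0.16, adjusted p = 0.497) against middle-aged ovaries.

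**Figure D4:**
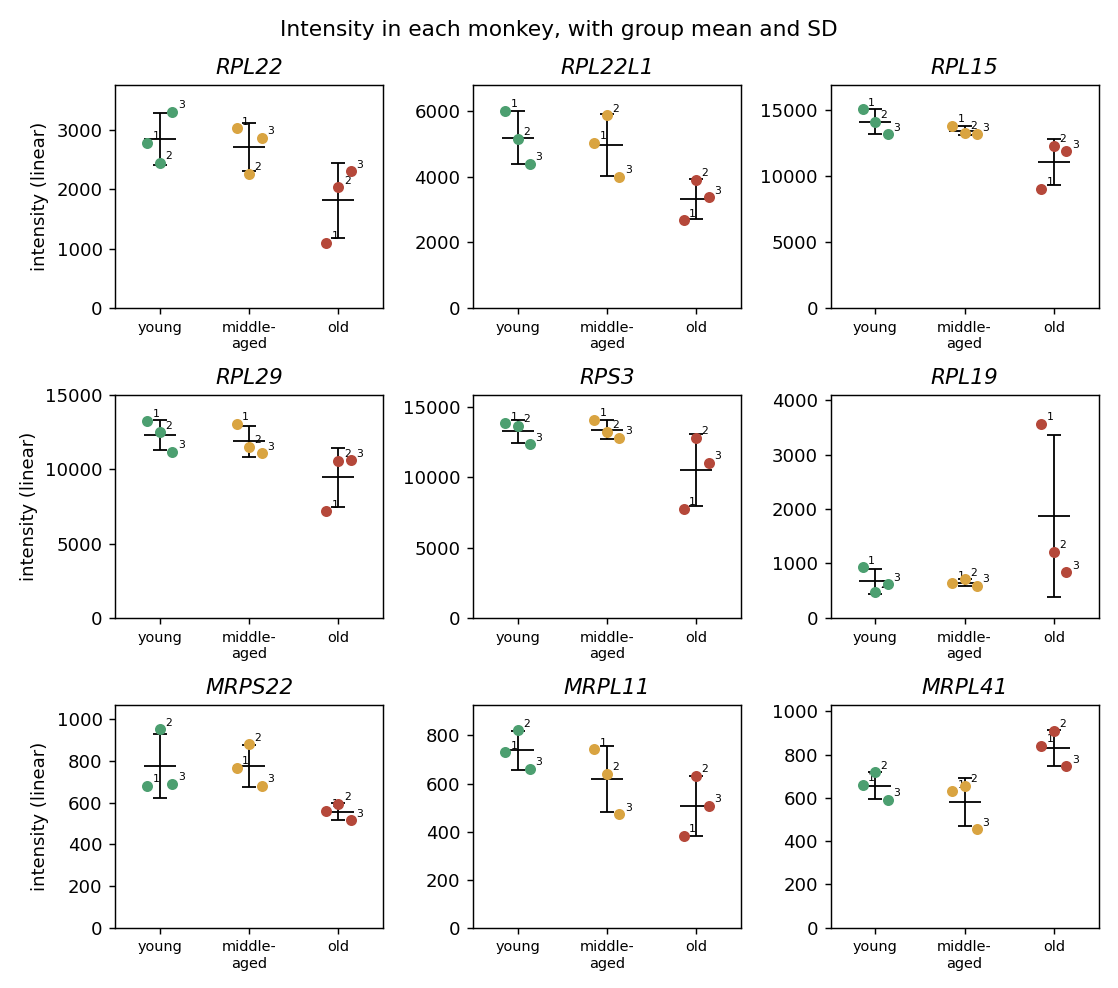
Linear intensity of 9 ribosomal protein genes in each monkey (points, numbered by replicate; axes start at 0), with the mean and SD of each group of 3. Old values lie below all young values for RPL22, RPL22L1, RPL15, RPL29, MRPS22 and MRPL11 and above them for MRPL41; old 1 is lowest for RPS3 and highest for RPL19.

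The remaining mitochondrial genes were within about 0.5 log2 units of 0 and overlapped between old and young ovaries. The lowest of the small subunit after MRPS22 by p were MRPS26 (-0.31, SE 0.14) and MRPS9 (-0.24, SE 0.14), and the highest were MRPS6 (0.46, SE 0.25), MRPS5 (0.32, SE 0.18) and MRPS18B (0.26, SE 0.15). In the large subunit MRPL51 had -0.33 (SE 0.17), MRPL45 -0.32 (SE 0.17) and MRPL33 0.47 (SE 0.24). These values also hung on single old arrays: without old 1 MRPL33 was at 0.17, MRPL45 at -0.21, MRPS26 at -0.20, MRPS9 at -0.11, MRPS5 at 0.20 and MRPS18B at 0.17, and without old 3 MRPS6 was at 0.26, MRPS5 at 0.53, MRPS18B at 0.40 and MRPL51 at -0.21. MRPS18A, picked after its values were seen, is 1 of 3 related forms of a small subunit protein and read 823 on old 1 against 241 to 345 on the other 8 arrays. The forms MRPS18B and MRPS18C read 661 and 492 on old 1, against 431 to 623 and 499 to 652 elsewhere, so that the excess on that array was far smaller for MRPS18B and not seen for MRPS18C.

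Set against each other, the mitochondrial minus the cytosolic median was -0.14, 0.08 and -0.04 on the young, -0.04, -0.04 and -0.20 on the middle-aged and 0.62, 0.11 and -0.26 on the old arrays. The old ovaries held both the highest and the lowest difference of the 9. The difference between the sets' median fold changes was 0.20 against young ovaries, and it was 0.00 without old 1. The pooled spread of single arrays within a group was larger (SD 0.27, n = 3 per group). That spread came mostly from the old arrays themselves, so it cannot judge a difference that rests on them. No test was run on these medians, since the genes of a set share the same 9 arrays.

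Genes that work with the ribosome were described from 7 lists. None of the measured genes in these lists passed the limma test in any comparison. SAM, which called 367 of all probe sets lower and 1 higher in old than in young ovaries, called 1 of these genes, the mitochondrial initiation factor MTIF3, as lower there and none in the other comparisons. The study's own list of genes lower in old ovaries holds MTIF3 and also RARS2, EIF3F and EIF3L, described below. Of 6 other components of the cytosolic ribosome, 4 were measured and all 4 were lower in old than in young ovaries (median -0.26). RACK1, a scaffold on the small subunit, read 14341, 13825 and 13157 in young, 14737, 13021 and 11721 in middle-aged and 9189, 12296 and 10885 in old ovaries (-0.36 against young, SE 0.14, limma adjusted p = 0.316). This list again had its lowest median deviation on old 1, at -0.36.

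Factors that assemble ribosomes in the nucleolus lay below their mean on all 3 old arrays. Of 48, 41 were measured, 36 lower and 5 higher against young ovaries (median -0.25), and 13 were lower at an unadjusted p under 0.05 (31.7%, against 12% of named genes). The list was chosen with earlier results of these data known, and DKC1, FBL and LYAR are among the study's own lower genes. That share is therefore no independent result. Median deviations of the 41 factors were -0.17, -0.07 and -0.25 on the old arrays and -0.06 to 0.19 on the others. DKC1, which modifies ribosomal RNA, read 884, 1157 and 1040.0 in young, 949, 978 and 899.7 in middle-aged and 498, 766 and 535 in old ovaries (-0.79, SE 0.18, limma adjusted p = 0.132). GNL3 (nucleostemin) had -0.56 (SE 0.13, adjusted p = 0.143) and NOP56, of the machinery that methylates ribosomal RNA, had -0.75 (SE 0.18, adjusted p = 0.151). SBDS, which frees new large subunits for translation, was at 455, 385 and 439.5 in young, 539, 574 and 787 in middle-aged and 659, 629 and 576 in old ovaries, above the young group in both (0.54 for old against young, SE 0.16, adjusted p = 0.207).

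Of 40 initiation and elongation factors of the cytosol 28 were measured, 20 lower and 8 higher in old than in young ovaries (median -0.16), with deviations of -0.13, -0.14 and -0.13 on the old arrays. EIF3L, a subunit of the initiation factor eIF3, read 454, 462 and 355 in young, 545, 307 and 329 in middle-aged and 257, 252 and 267 in old ovaries (-0.70 against young, SE 0.22, limma adjusted p = 0.229). EIF3F of the same factor had -0.73 (SE 0.23, adjusted p = 0.239). EEF2, which moves the ribosome along the message, had the opposite sign (0.92, SE 0.27, adjusted p = 0.209), at 154, 129 and 162 in young and 329, 198 and 334 in old ovaries.

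The partners of the mitochondrial ribosome had medians below 0 against young ovaries in 3 of 4 lists. The medians of old against young ovaries were -0.20 for 12 translation factors, -0.16 for 14 aminoacyl-tRNA synthetases, -0.22 for 14 assembly factors and 0.06 for 5 other components. Against middle-aged ovaries they were 0.00, -0.08, -0.09 and 0.15. Middle-aged ovaries themselves lay below young ones in these lists, with medians of -0.15 (10 of 12 lower), -0.16 (11 of 14), -0.14 (12 of 14) and -0.10 (4 of 5). Of all named genes 53.6% were lower in that comparison. On old 1, old 2 and old 3 the median deviations were 0.19, 0.09 and -0.32 for translation factors. They were 0.12, -0.06 and -0.30 for synthetases, 0.01, 0.05 and -0.26 for assembly factors and 0.08, 0.17 and -0.19 for other components. Old 3 was thus the lowest old array in each list. RARS2, the mitochondrial arginyl-tRNA synthetase, read 145, 164 and 145 in young, 124, 89.1 and 108 in middle-aged and 91.9, 83.2 and 54.2 in old ovaries (-1.02, SE 0.21, limma adjusted p = 0.113). AARS2, the alanyl-tRNA synthetase mutated in a brain and ovary disorder, had -0.55 (SE 0.14, adjusted p = 0.174). MTIF3 had -0.79 (SE 0.22, adjusted p = 0.200) and the assembly helicase DHX30 had -0.46 (SE 0.13, adjusted p = 0.209).

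**Figure D5:**
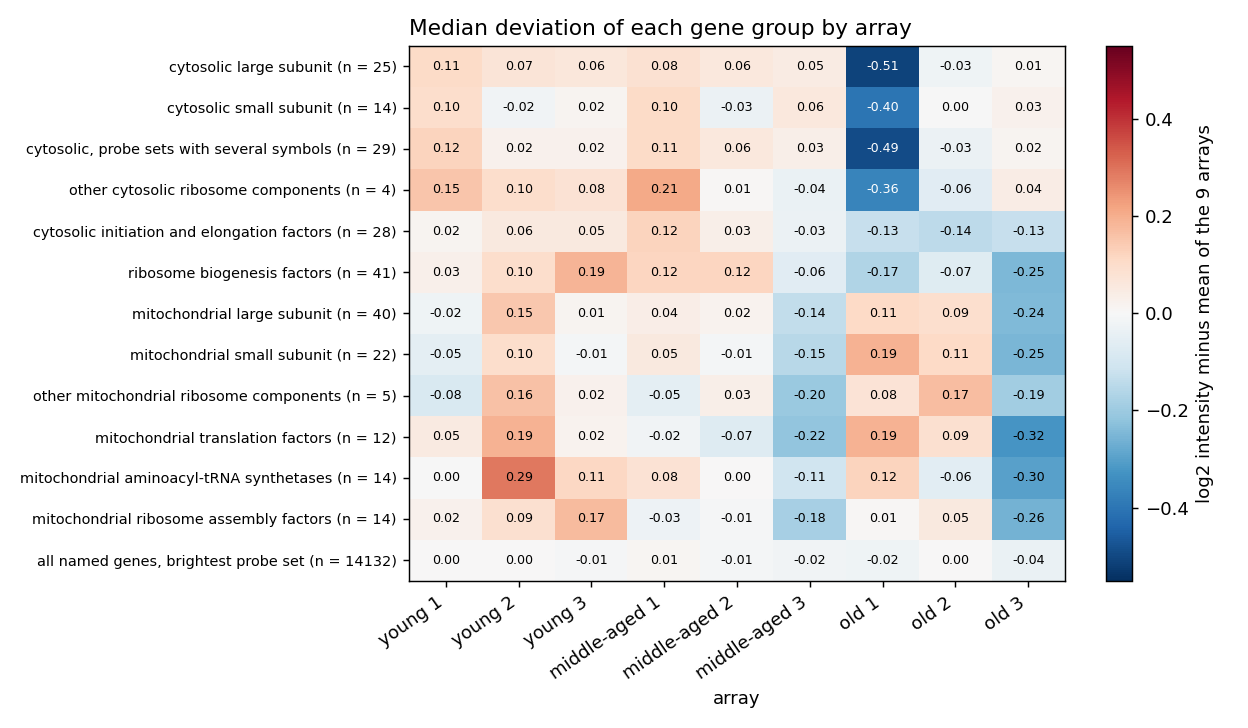
Median deviation, in log2 units from each gene's mean over the 9 arrays, of ribosomal protein groups and related lists (rows, with the number of genes or probe sets) on each array (columns); blue is below and red above the mean. The rows of the cytosolic subunits are lowest on old 1 (-0.51 and -0.40), those of the mitochondrial subunits on old 3 (-0.24 and -0.25), and the biogenesis factors are below 0 on all 3 old arrays.

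The second comparison, of old with middle-aged ovaries, shares the old arrays with the first. No ribosomal protein gene passed the test, which called 0.0341% of probe sets. The median log2 fold change was -0.22 for the cytosolic set (31 lower, 8 higher) and 0.01 for the mitochondrial set (30 lower, 32 higher). At an unadjusted p under 0.05, 3 cytosolic genes were lower (7.69%, against 7.61% of named genes) and 1 was higher (2.56%, against 3.67%), and 1 mitochondrial gene lay each way (1.61%). The lower cytosolic genes became 0 without old 1 (against 6.02% of named genes), 6 without old 2 (15.4%, against 8.53%) and 12 without old 3 (30.8%, against 7.18%). Without old 3 the mitochondrial genes became 0 lower (against 7.18%) and 9 higher (14.5%, against 6.83%). The 3 lower cytosolic genes were RPL22, RPL22L1 and RPS7. RPS7 of the small subunit read 6346, 7931 and 7285 in middle-aged and 4158, 5146 and 6935 in old ovaries (-0.44, SE 0.18, limma adjusted p = 0.623, and -0.26 without old 1). All 3 old arrays lay below all 3 middle-aged arrays for 11 of the 39 cytosolic genes (28.2%), against 1303 of 14132 named genes. They lay above them for 3 (7.69%), against 785 of the named genes. For mitochondrial genes such separation was seen for 2 lower (3.23%) and 1 higher (1.61%). Without old 1 the cytosolic median was -0.08, with 30 genes lower and 9 higher. Without old 3 the mitochondrial median was 0.16.

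The third comparison was of middle-aged with young ovaries. No ribosomal protein gene passed the test, which called 0.00190% of probe sets, and the medians were 0.01 for the cytosolic (19 lower, 20 higher) and -0.03 for the mitochondrial set (37 lower, 25 higher). At an unadjusted p under 0.05, 1 gene of each set was lower (2.56% and 1.61%, against 1.88% of named genes) and none was higher (against 1.42%). These were RPL3L (-0.31, SE 0.12), a dim probe set in all groups, and MRPL44 (-0.53, SE 0.23), a large subunit protein with an RNase III fold. MRPL44 read 153, 211 and 148 in young, 97.1, 115 and 144 in middle-aged and 148, 218 and 142 in old ovaries. Its second probe set gave 0.85 (SE 0.39) for the same comparison, the opposite sign. MRPL44 had 5 probe sets, whose log2 fold changes of old against young ovaries spanned 1.03.

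Markers of ovarian cell types moved across the same arrays. Median deviations of the oocyte markers were -1.57, -1.67 and -2.07 on the old arrays and 0.11 to 1.57 on the others, so that they were low on all 3 old arrays while the cytosolic set was low on old 1. Old 3, lowest for the mitochondrial set, was also lowest for granulosa cell markers (-1.19) and highest for markers of smooth muscle and pericytes (1.45) and of endothelial cells (1.11). Middle-aged 3, second lowest for the mitochondrial set at -0.15, had -0.67 for granulosa cell markers and 0.77 for smooth muscle. Of 10 markers of theca and other steroid-making cells 6 were measured. Their median was 1.71 on old 1, 1.76 on old 2 and -0.18 on old 3. Of the 6, 2 lay below their own mean on old 1, 1 on old 2 and 4 on old 3. Old 1, lowest for the cytosolic set, was also lowest for markers of stromal fibroblasts (-0.49, with all 8 below their mean) and of surface epithelium (-0.46, with 10 of 11 below) and highest for macrophage markers (0.73, the highest array for 6 of 10), and endothelial markers were at 0.82 there. The part of cell makeup, and of the 3′ to 5′ ratios, in these results was not tested.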

How the data were processed

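The authors deposited 1 intensity per probe set and array on a linear scale. Per the labels the arrays were biotin-labelled and summarised with RMA (version not stated), whereas the study's methods describe LOWESS normalization with dye reversal, so the route to the values rests on the labels. No detection calls are used here. Of 52865 probe sets, 99 controls were left out, and log2 values of the other 52766 were fitted with limma (version 3.58.1, R 4.3.3), with 1 mean per age group over 9 arrays and Benjamini-Hochberg adjustment over all probe sets. Precision is limited by the few arrays. The p-values rest on the spread among monkeys within a group, pooled over the 3 groups and moderated over all probe sets. Symbols come from GEO's platform annotation, which gives 1 symbol to 24956 probe sets, several to 361 and none to 27449. Probe sets with several symbols (29 cytosolic, 1 mitochondrial) were not assigned to a gene, which leaves out 9 cytosolic genes, RPSA among them. Members and lists were chosen with earlier results of these data known. Genes are named by the smallest p per subunit, direction and comparison, as paralogs, or for the largest difference between probe sets, and per list by the smallest p; others were picked after their values were seen. A planned search of promoters was not run, since no sequence is used here. The fit and SAM (20 labelings) were tested on simulated data. Alternatives were other scalings, probe set choices, variance settings, array weights, SAM, a replicate block and leaving out each array.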

Additional observations from a re-analysis of the deposited data

How the results depend on the processing

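No ribosomal protein gene was called under any of the alternatives run, in any comparison. The set medians moved by more than the spread between arrays of a group in 3 cases, each on leaving out old 3. The cytosolic spread (SD 0.16) came mostly from old 1 itself, at -0.48 against -0.01 and 0.01 on old 2 and old 3. It therefore cannot judge the effect of leaving out old 1. With each array left out in turn, the mitochondrial median between old and young ovaries ran from -0.090 to 0.14, that between old and middle-aged ovaries from -0.032 to 0.16, and the mitochondrial minus cytosolic difference between old and middle-aged ovaries from 0.047 to 0.51. The cytosolic median ran from -0.30 to -0.08 and from -0.35 to -0.08 in these comparisons, the values nearest 0 being those without old 1. Under the other alternatives the cytosolic median between old and young ovaries stayed between -0.32 and -0.12. Leaving out all arrays numbered 3, an alternative added after seeing the data like that with the probe sets of several symbols, gave -0.32 for the cytosolic and 0.12 for the mitochondrial set. Replicate numbers are given in the labels, but deviations of same-numbered arrays correlated at 0.10, 0.04 and 0.25 between old and young, at 0.13, -0.02 and 0.35 between old and middle-aged and at 0.27, 0.06 and 0.41 between middle-aged and young ovaries, with a value under 0.1 in each, so the numbers were not taken as pairs. With the replicate number as a block 0 genes were called. The median fold changes, -0.22 and -0.02 between old and young ovaries, could not change there, since each number occurs once in each group. Among the fold changes of single named genes, none of them called, 2690 kept their sign under an alternative and 100 changed it. The planned promoter comparison was not run. Faint probe sets, such as those of RPL3L, RPL5, RPS27L and MRPS6, lie below the median probe set, where signal over background is not known.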
